A study of Homo sapiens with 9 samples.

Results

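Messenger RNA levels were compared between cells given biomineralized insulin, that is insulin carried in a mineral form, and cells given soluble insulin at the same dose. The comparison rests on 6 of the 9 arrays of the series, the 3 titled as biomineralized insulin (BI-1 to BI-3) and the 3 titled as insulin, and on every gene with a probe set of its own. Of 18132 such genes, 12239 were bright enough to be tested. The cells are described in the protocols as R-HepG2, an insulin-resistant form of the human hepatoma line HepG2. They spent a night in DMEM without serum and were then given DMEM alone, insulin or biomineralized insulin for 4 h. Both preparations held insulin at 40 ug/ml, and the cells were rinsed with PBS and EDTA before total RNA was taken. The cell line tag reads HepG2 for all 6 treated arrays and R-HepG2 for the 3 medium arrays, while the protocols name R-HepG2 throughout. No group received the mineral without insulin, so the mineral and the form in which insulin reached the cells cannot be told apart. Whether the 3 replicates were grown apart is not given, and the p-values reflect only how far these arrays scatter, which may be technical. In bulk RNA, fewer cells of a kind and less RNA per cell cannot be told apart either.

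Several stress programmes are read by distinct sets of target genes. In the integrated stress response, kinases that sense amino acid shortage, unfolded protein, double-stranded RNA or haem phosphorylate the initiation factor eIF2, and the transcription factor ATF4 is then made and switches on genes for amino acid supply, tRNA charging and secreted factors. In the heat shock response, HSF1 switches on chaperones of the cytosol. The unfolded protein response does so for chaperones of the endoplasmic reticulum (ER), metallothioneins follow metal ions through MTF1, and sterol shortage acts through SREBP2. Insulin signals through its receptor, the IRS adaptors, PI3K and AKT, which holds FOXO factors out of the nucleus.

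The deposited values are log2 levels per probe set. Array medians lay between 5.46 and 5.50 log2, and pairs of arrays correlated at 0.9979 to 0.9984 within a group and at 0.9938 to 0.9944 between the preparations. Markers of hepatocytes were mostly dim. Of 28 liver markers with a probe set, 19 lay below the brightness filter of 4.74 log2, among them albumin (ALB, 3.49 with insulin and 3.41 with biomineralized insulin) and alpha-fetoprotein (AFP, 2.87 and 2.93). CPS1, a urea cycle enzyme, was bright at 13.16 and 13.00. Of 13 lung epithelium markers with a probe set, 10 lay above the filter, among them NKX2-1 at 6.36 and 6.73 and ABCA3 at 8.03 and 8.23. Those 10 averaged 6.30 to 6.32 log2 on the insulin arrays and 6.40 to 6.44 on the biomineralized insulin arrays, with 2 called higher, each with another probe set of opposite sign. The part of this in other results was not tested. Above the filter also lay 7 of 10 fibroblast and 6 of 8 endothelial markers, and 12239 of all 18132 genes. For squamous markers it was 4 of 10 and for macrophage markers 3 of 9. On the insulin arrays the tested fibroblast markers averaged 6.325 to 6.408 log2 and the tested liver markers 6.516 to 6.573. On the biomineralized insulin arrays they averaged 6.305 to 6.422 and 6.536 to 6.585. Of 7 fibroblast markers 1 was called higher and 1 lower, of 4 squamous markers 1 higher, and of 3 macrophage and 6 endothelial markers none. HepG2 cells are known to make albumin and alpha-fetoprotein, so the low levels of these 2 markers go against the label of a HepG2 line. The cells are called here by their label, and their identity was not tested.

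Poly-A spike-ins, bacterial transcripts added to the RNA before labelling, were brighter on the biomineralized insulin arrays, at 7.77, 8.08 and 7.85 log2 (mean of 22 features) against 7.52, 7.48 and 7.53 on the insulin arrays. The difference of 0.40 had p = 0.1 in a two-sided exact permutation test, the smallest that 3 arrays against 3 allow (0.25 after Benjamini-Hochberg adjustment over 5 control tests). Hybridization spike-ins differed by -0.01 log2 (exact p = 0.6). The 3' minus 5' signal, which reads RNA integrity, was 3.19 log2 for actin with insulin and 3.07 with biomineralized insulin. Actin signal was thus stronger at the 3' end in both groups, which differed by -0.12 (exact p = 0.3). For GAPDH the 3' minus 5' signal was 0.17 with insulin and 0.20 with biomineralized insulin (exact p = 0.1). When each array was centred on the poly-A spike-ins, the median difference over all genes moved from 0.02 to -0.38 log2. Directions below are thus relative to the typical gene, and most rises are also given after spike-in centring.

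The difference between the preparations was broad and mostly small. Of 12239 genes, 5433 were called different (44.4%) at an adjusted p under 0.05 in limma, 2579 higher with biomineralized insulin (21.1%) and 2854 lower (23.3%). Their median absolute difference was 0.28 log2. Levels on the biomineralized insulin and insulin arrays did not overlap in 6455 of the 12239 genes (52.7%). Lack of overlap, given for named genes below, thus does not by itself set a gene apart. A change of at least 1.5-fold was called in 636 genes, 196 higher (1.6%) and 440 lower (3.6%), so 69.2% of these were lower. At 2-fold or more, 30 genes were higher and 117 lower. Beyond 4-fold, 20 genes were lower and 1, HSPA1B, was higher. A separate test asked which genes stay equal, defined as a difference shown to lie inside a margin of 0.25 log2 (1.19-fold) in either direction. By that test 4961 genes were equal (40.5%), of which 693 also had a small called difference. Centring on the poly-A spike-ins, which shifts the median past the margin, left 0 genes equal, and all 43 listed ribosomal proteins were then lower. Statements of equality below hold for the deposited scale only. The other 2538 (20.7%) were neither called nor equal, and nothing can be said of them at this number of arrays.

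**Figure D1:**
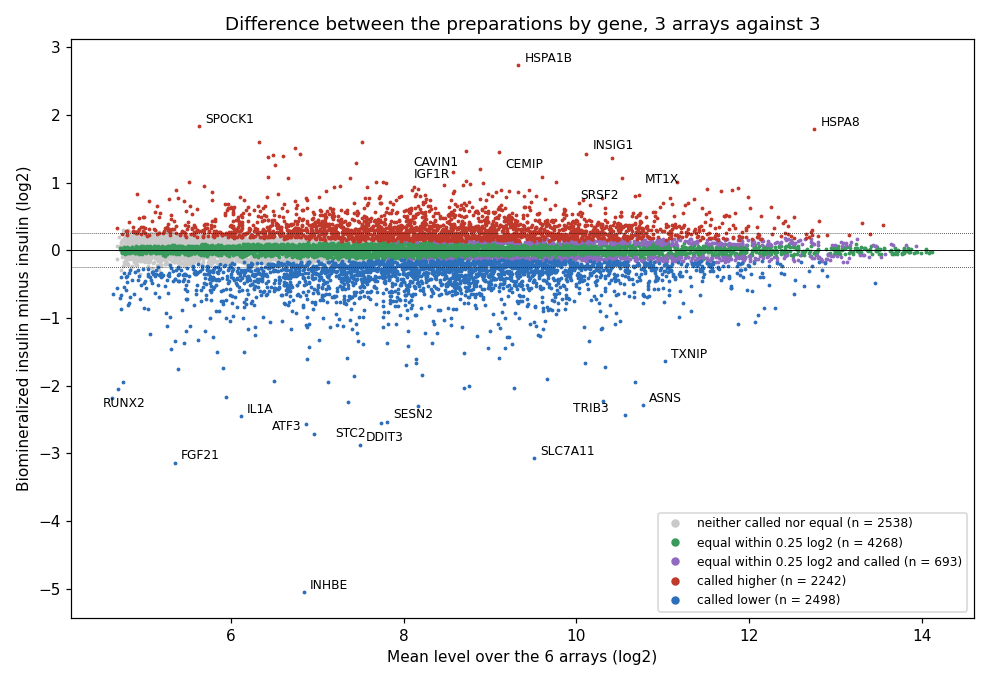
Difference between the preparations (biomineralized insulin minus insulin, log2, vertical axis) against the mean level over the 6 arrays (log2, horizontal axis), 1 point per gene, coloured by call, with dotted lines at the margin of 0.25 log2. INHBE lies lowest at -5.04 and HSPA1B highest at 2.74, and most genes lie between the dotted lines.

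Secreted stress factors were lower with biomineralized insulin in 9 of 11 tested, 7 of them at least 1.5-fold, and none was higher. The share called was 81.8%, against 44.4% of all genes. INHBE, a subunit of activin E, was at 9.38, 9.36 and 9.36 log2 on the insulin arrays and at 4.06, 4.44 and 4.45 on the biomineralized insulin arrays. The groups were far apart, and the second mean, 4.32, lay below the brightness filter. Set against the filter level, which is not a measured background, INHBE was at least 24.6-fold lower (adjusted p = 1.06e-16). FGF21, a hormone of the fasting and stress response, was at 6.94, 6.94 and 6.88 with insulin and at 4.51, 3.67 and 3.17 with biomineralized insulin, at least 4.52-fold lower by the same bound (adjusted p = 5.14e-09). On medium arrays INHBE was at 9.67, 9.61 and 9.53 and FGF21 at 7.52, 7.69 and 7.36, and soluble insulin differed from medium by -0.24 and -0.60 log2 for these genes (adjusted p = 0.147 and 0.161), far less than the step between the preparations. STC2, stanniocalcin 2, fell by 2.55 ± 0.06 log2 (SE, here and below) and GDF15, a stress hormone that curbs appetite, fell by 1.85 ± 0.09 (weakest probe set -0.04). The cytokines IL1A and CXCL8 were lower (-2.46 and -1.28), and IL6, whose mean with biomineralized insulin lay below the filter, was at least 1.6-fold lower. FST, follistatin, which binds activins, was equal, at 7.09 ± 0.02 and 7.09 ± 0.08 log2 (SD, n = 3).

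The regulators of the integrated stress response differed in 20 of 21 tested (95.2%, against 44.4% of all genes), 15 lower and 5 higher. Their median difference was -0.85 log2 against 0.02 over all genes. DDIT3, also called CHOP, a transcription factor of prolonged stress, was at 8.92, 8.92 and 8.97 with insulin and 5.95, 6.04 and 6.17 with biomineralized insulin. Its groups did not overlap, and it fell by 2.88 ± 0.06 log2, a 7.37-fold difference (adjusted p = 1.5e-15), with its second probe set at -2.87. TRIB3, a pseudokinase that is induced by ATF4 and binds AKT, was at 11.77, 11.85 and 11.72 and 9.35, 9.34 and 9.35, again without overlap, and fell by 2.44 ± 0.04 (adjusted p = 4.35e-17). CEBPG, a binding partner of ATF4, fell by 1.90 ± 0.04. ATF3 fell by 2.72 ± 0.08 (weakest of 3 probe sets -0.25), SESN2, which restrains mTORC1, fell by 2.54 ± 0.06, CHAC1, a glutathione-degrading enzyme, fell by 2.24 ± 0.13 and NUPR1 fell by 2.23 ± 0.06. The messenger RNA of ATF4 itself fell by 0.85 ± 0.03, less than these targets. The 5 members that were higher included the kinases EIF2AK4 (0.52), EIF2AK2 (0.20) and EIF2AK3 (0.19), while EIF2AK1, the haem-regulated kinase, was equal in its main probe set (0.04), with others from -0.01 to 0.31. After spike-in centring EIF2AK4 was at 0.12, EIF2AK2 at -0.20 and EIF2AK3 at -0.20. None of the 21 was then called higher and 16 were lower.

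Genes that bring in or make amino acids were lower in large part. Of 16 amino acid transporters, 10 were lower and 4 higher (87.5% called, against 44.4% of all genes). SLC7A11, the cystine importer, was at 11.06, 11.05 and 11.02 with insulin and 7.94, 7.96 and 8.02 with biomineralized insulin, groups far apart, and fell by 3.07 ± 0.04 log2 (adjusted p = 2.36e-18, weakest of 3 probe sets -0.60). Its partner chain SLC3A2 fell by 0.78 ± 0.03 and the glutamine carrier SLC1A5 fell by 1.198 ± 0.04. SLC7A2, a carrier of cationic amino acids, was equal in its main probe set (0.00), and 2 of 3 probe sets went the other way. Of 18 enzymes of amino acid and one-carbon metabolism, 14 were lower and 2 higher (88.9% called). ASNS, asparagine synthetase, was at 11.92, 11.90 and 11.90 and 9.56, 9.70 and 9.63, without overlap, and fell by 2.28 ± 0.04 (adjusted p = 1.06e-16). PCK2, the mitochondrial phosphoenolpyruvate carboxykinase, fell by 2.31 ± 0.06 and CTH, which makes cysteine, fell by 2.04 ± 0.04. The serine pathway enzymes PHGDH and PSAT1 were lower (-1.17 and -1.09). GOT2, the mitochondrial aspartate aminotransferase, was equal at 11.15 and 11.09, although 3 of 5 probe sets went the other way, and so was the folate enzyme MTHFD1 within a small called difference (-0.11 ± 0.04). After spike-in centring no transporter or enzyme of these lists was called higher.

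Of 19 cytosolic aminoacyl-tRNA synthetases, which charge tRNAs with amino acids, 13 were lower, 2 higher and 6 equal, 2 of these with a small called difference. The share called was 78.9%, against 44.4% of all genes. CARS1, for cysteine, was at 9.90, 9.89 and 9.89 with insulin and 8.31, 8.27 and 8.34 with biomineralized insulin, without overlap, and fell by 1.59 ± 0.04 log2 (adjusted p = 6.09e-14). GARS1 (glycine) fell by 1.06 ± 0.03, SARS1 (serine) fell by 0.98 ± 0.04 and AARS1 (alanine) fell by 1.16 ± 0.05. In contrast KARS1 (lysine) was equal at 12.09 ± 0.01 and 12.15 ± 0.04 log2 (SD, n = 3; equivalence adjusted p = 0.000114) and QARS1 (glutamine) at 10.12 and 10.10. RARS1 (arginine) was higher by 0.31, and lay at -0.08 after spike-in centring.

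The C/EBP-ATF response element, the site that ATF4 and its partners bind, was sought as TGATGNAA (N any base) on both strands of the window from 250 bases before to 50 after each gene's start in RefSeq (GRCh38.p14), which had an entry for 9981 of the 12239 tested genes. The promoters of 3 genes that were lower show the match in capitals: FGF21 (chr19:48755274-48755573, plus strand), ASNS (chr7:97872359-97872658, minus strand) and CHAC1 (chr15:40953221-40953520, plus strand).
FGF21: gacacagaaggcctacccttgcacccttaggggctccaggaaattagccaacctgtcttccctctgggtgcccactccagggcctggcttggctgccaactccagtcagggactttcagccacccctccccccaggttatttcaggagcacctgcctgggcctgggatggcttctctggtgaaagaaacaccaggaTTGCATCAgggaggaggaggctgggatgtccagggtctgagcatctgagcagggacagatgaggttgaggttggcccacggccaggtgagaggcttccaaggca
ASNS: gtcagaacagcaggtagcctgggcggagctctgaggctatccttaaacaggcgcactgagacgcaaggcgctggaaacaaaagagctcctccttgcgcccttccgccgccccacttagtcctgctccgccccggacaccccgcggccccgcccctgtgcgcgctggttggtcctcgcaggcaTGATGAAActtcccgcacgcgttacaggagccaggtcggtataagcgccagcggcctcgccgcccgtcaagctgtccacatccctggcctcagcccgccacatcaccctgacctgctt
CHAC1: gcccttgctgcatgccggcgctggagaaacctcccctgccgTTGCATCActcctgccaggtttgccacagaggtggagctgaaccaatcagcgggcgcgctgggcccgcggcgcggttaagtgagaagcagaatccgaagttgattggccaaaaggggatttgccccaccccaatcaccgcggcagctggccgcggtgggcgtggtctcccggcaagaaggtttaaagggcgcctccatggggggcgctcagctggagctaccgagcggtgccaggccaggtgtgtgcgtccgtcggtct
Promoters of DDIT3, TRIB3, SESN2 and STC2, also lower, were searched too and held no match in this window. The match begins 54 bases before the start in FGF21, 68 in ASNS and 209 in CHAC1. It was present in 6 of 16 synthetase promoters (37.5%), 4 of 14 for the enzymes, 4 of 14 for the transporters and 3 of 19 for the stress response regulators (15.8%). Among all tested genes 1.83% of promoters held it, among those lower by at least 1.5-fold 6.78% (25 of 369), among those higher by at least 1.5-fold 0.637% and among equal genes 1.39%. A match is a description of letters and not a shown binding site.

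**Figure D2:**
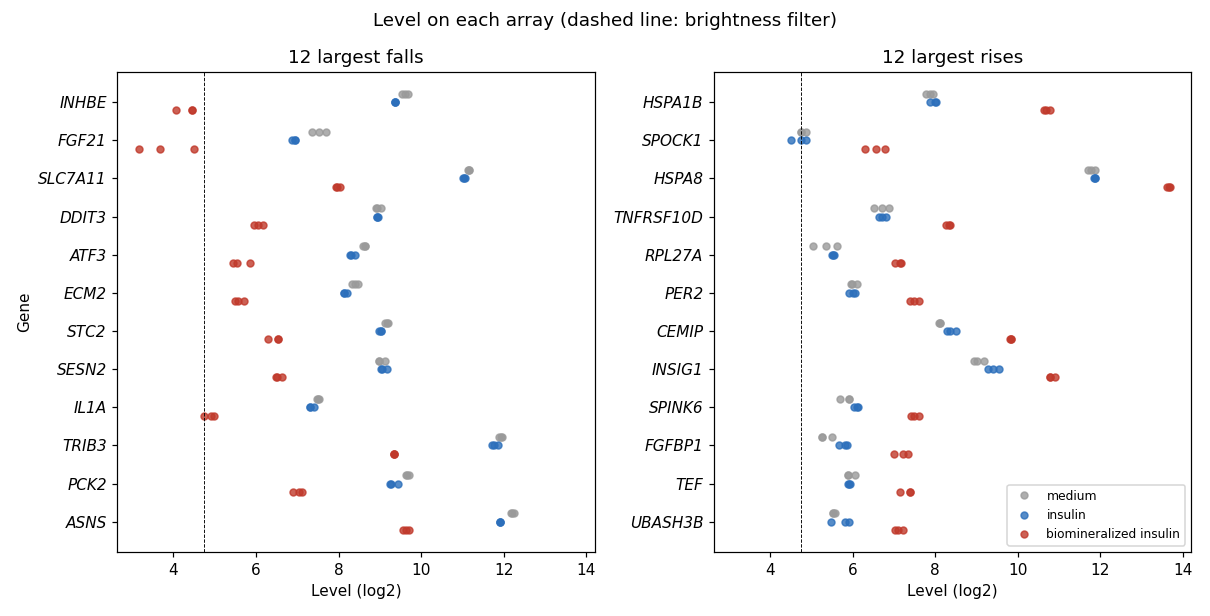
Level on each of the 9 arrays (log2, horizontal axis) for the 12 largest falls (left) and the 12 largest rises (right), 1 point per array, in grey for medium, blue for insulin and red for biomineralized insulin, with a dashed line at the brightness filter of 4.74. The genes were chosen for groups that do not overlap and for the largest differences. The 3 red points thus lie apart from the 3 blue points by construction. The blue points lie nearer to the grey ones than to the red.

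Chaperones of the cytosol were higher more often than lower. In the HSP70 and HSP110 family, 9 of 15 were higher and 2 lower (73.3% called, against 44.4% of all genes), with a median difference of 0.31 log2. HSPA1B, the stress-inducible HSP70, was at 7.86, 8.01 and 8.01 with insulin and 10.69, 10.78 and 10.63 with biomineralized insulin, and at 7.94, 7.87 and 7.78 in medium. The preparations did not overlap, and it rose by 2.74 ± 0.06 log2, 6.67-fold (adjusted p = 1.5e-15). HSPA1B and HSPA1A are near-identical copies, and 4 probe sets listed with both genes differed by 2.15 to 2.82, so the copies cannot be told apart. HSPA8, the constitutive HSP70 of the cytosol, was at 11.84, 11.87 and 11.87 and 13.61, 13.68 and 13.65, without overlap, and rose by 1.79 ± 0.04 (adjusted p = 1.29e-15, weakest of 6 probe sets 0.91). BAG1, a nucleotide exchange factor for HSP70, rose by 0.70 ± 0.04, while HSPA4 and ST13, other partners of HSP70, were equal (-0.03 and 0.05), although 2 of 4 probe sets of HSPA4 had the opposite sign, 1 of them at 0.35. Of 14 HSP90, small heat shock and HSF genes 9 were higher and 1, FKBP5, lower (-0.57), with 71.4% called. The cytosolic HSP90 genes HSP90AB1 and HSP90AA1 rose by 0.49 ± 0.03 and 0.44 ± 0.04, and HSPE1, the mitochondrial chaperonin lid, by 0.61 ± 0.04. HSF1, the factor that drives this response, was equal at 7.96 and 7.98. Of 16 J-domain co-chaperones, which load clients onto HSP70, 8 were higher and 2 lower (62.5% called). DNAJA1 was at 11.37, 11.40 and 11.47 and 12.30, 12.35 and 12.34, without overlap, and rose by 0.92 ± 0.03, and DNAJB1 rose by 0.38 ± 0.04. After spike-in centring, 3, 1 and 1 genes of these 3 lists stayed called higher, and 7, 8 and 10 were lower. HSPA1B was then at 2.34, HSPA8 at 1.39, BAG1 at 0.31, DNAJA1 at 0.52, DNAJB1 at -0.02, HSPE1 at 0.22, HSP90AB1 at 0.09 and HSP90AA1 at 0.04.

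The binding element of HSF1 was sought as GAANNTTC or TTCNNGAA on both strands, where the forms may overlap, and is shown in capitals in HSPA1B (chr6:31827488-31827787, plus strand), HSPA8 (chr11:123062087-123062386, minus strand) and DNAJA1 (chr9:33025023-33025322, plus strand), the largest rises of the HSP70 and J-domain lists.
HSPA1B: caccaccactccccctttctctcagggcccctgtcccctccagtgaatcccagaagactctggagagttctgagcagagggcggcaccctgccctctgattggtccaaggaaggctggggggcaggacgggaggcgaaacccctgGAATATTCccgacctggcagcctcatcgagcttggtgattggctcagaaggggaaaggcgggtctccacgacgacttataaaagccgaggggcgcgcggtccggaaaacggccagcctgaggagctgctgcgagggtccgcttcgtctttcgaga
HSPA8: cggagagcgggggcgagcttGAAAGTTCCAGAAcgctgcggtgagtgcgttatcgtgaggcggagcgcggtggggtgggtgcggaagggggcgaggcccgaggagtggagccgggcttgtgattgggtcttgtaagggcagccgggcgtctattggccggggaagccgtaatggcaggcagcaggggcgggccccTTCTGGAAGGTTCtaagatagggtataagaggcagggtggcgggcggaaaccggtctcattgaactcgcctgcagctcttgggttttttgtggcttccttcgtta
DNAJA1: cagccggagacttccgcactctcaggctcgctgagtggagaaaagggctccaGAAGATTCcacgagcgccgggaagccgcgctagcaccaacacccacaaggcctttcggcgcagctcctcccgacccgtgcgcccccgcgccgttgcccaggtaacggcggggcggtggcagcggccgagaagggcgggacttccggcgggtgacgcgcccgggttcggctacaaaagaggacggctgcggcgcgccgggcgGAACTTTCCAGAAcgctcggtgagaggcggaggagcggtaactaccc
HSPA1B held 1 match, 105 bases before the start, HSPA8 held 4 as overlapping pairs and DNAJA1 held 3. HSPE1, the largest rise of the HSP90 list, held none in this window. Over all tested genes 10% of promoters held a match, and 12.7% of genes at least 1.5-fold higher, against 4 of 13 in the HSP70 and HSP110 family, 3 of 11 in the HSP90 list and 2 of 16 among J-domain genes.

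Chaperones of the ER mostly stayed equal. Of 29 genes of the ER and the unfolded protein response 21 were equal (72.4%, against 40.5% of all genes), 5 were higher and 3 lower. Bright genes were called equal more often, in 59.3% of the brightest quartile of tested genes, and the share was not adjusted for level. CANX, calnexin, was at 12.98, 13.02 and 12.97 with insulin and 12.97, 13.01 and 13.00 with biomineralized insulin, in overlapping groups (difference 0.00 ± 0.02, equivalence adjusted p = 5.01e-06). HSP90B1, the HSP90 of the ER, was at 13.29 ± 0.02 and 13.28 ± 0.03 log2 (SD, n = 3), and HSPA5, its HSP70, also called BiP, at 12.55 ± 0.07 and 12.47 ± 0.09. HERPUD1, of the ER degradation complex and also an ATF4 target, fell by 1.14 ± 0.04, and XBP1, the factor spliced by IRE1, fell by 0.88 ± 0.04. MANF, a secreted ER protein, rose by 0.38 ± 0.03 and lay at -0.02 after spike-in centring. The CCT chaperonin, which folds actin and tubulin, had 4 of 8 subunits higher, the largest CCT3 at 0.24 ± 0.02 and TCP1 at 0.20 ± 0.03, and 6 equal, among them CCT5 (0.01) and CCT8 (0.02). Its share called, 50%, lay near the 44.4% of all genes. No CCT subunit was called higher after spike-in centring, with CCT3 at -0.15 and TCP1 at -0.20. Of 27 proteasome subunits 23 were equal (85.2%), such as PSMB3 (0.01) and PSMB4 (0.01), and PSMD3 rose by 0.46 ± 0.04 (spike-in centred 0.06).

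Metal response genes were higher in 9 of 14 tested and lower in 2 (78.6% called, against 44.4% of all genes). MT1X, a metallothionein, was at 10.20, 10.32 and 10.43 with insulin and 11.12, 11.13 and 11.14 with biomineralized insulin, without overlap, and rose by 0.81 ± 0.05 log2 (adjusted p = 2.24e-09). MT2A, a bright metallothionein, rose by 0.41 ± 0.02, from 13.10 ± 0.04 to 13.51 ± 0.01 log2 (SD, n = 3), and MT1E by 0.84 ± 0.06. The metallothionein genes are close copies, and their probe sets may share signal. The zinc importer SLC39A10 rose by 0.52 ± 0.03, whereas FTL, ferritin light chain, and TFRC, the transferrin receptor, were equal at -0.05 and 0.08, and MTF1 was equal too (0.00). After spike-in centring 2 of the 14 stayed called higher, with MT1X at 0.41, MT1E at 0.44, SLC39A10 at 0.12 and MT2A at 0.01. The metal response element was sought as TGCACNC or TGCGCNC on both strands and is shown in capitals in MT1X (chr16:56682220-56682519, plus strand) and MT2A (chr16:56608334-56608633, plus strand), the metallothioneins of lowest p.
MT1X: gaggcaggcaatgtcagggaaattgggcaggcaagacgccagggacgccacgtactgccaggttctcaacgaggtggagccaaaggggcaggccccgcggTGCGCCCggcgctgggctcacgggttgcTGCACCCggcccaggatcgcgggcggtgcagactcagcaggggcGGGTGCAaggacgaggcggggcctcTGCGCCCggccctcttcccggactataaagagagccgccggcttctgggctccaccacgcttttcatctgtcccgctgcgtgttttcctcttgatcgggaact
MT2A: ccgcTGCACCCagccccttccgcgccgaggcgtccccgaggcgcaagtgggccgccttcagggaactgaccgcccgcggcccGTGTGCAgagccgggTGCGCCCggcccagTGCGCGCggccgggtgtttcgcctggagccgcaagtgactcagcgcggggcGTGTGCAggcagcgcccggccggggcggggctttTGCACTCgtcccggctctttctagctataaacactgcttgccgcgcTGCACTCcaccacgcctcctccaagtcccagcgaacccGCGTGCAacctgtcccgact
MT1X held 4 matches and MT2A 8. A match was found in 6 of 9 promoters of the list and in 38.2% of all tested genes.

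Genes of phosphate and calcium handling were listed because the carrier is a mineral, whose composition the labels do not give. Both type III sodium-phosphate importers were higher, SLC20A1 by 0.69 ± 0.04 log2 (from 10.76 ± 0.02 to 11.45 ± 0.08, SD, n = 3) and SLC20A2 by 0.58 ± 0.07 (other probe set 0.12). RUNX2, a transcription factor of bone formation, was at 5.62, 5.78 and 5.75 with insulin and 3.77, 3.40 and 3.83 with biomineralized insulin, the latter all below the filter, so it was at least 1.96-fold lower. BMP2, a bone morphogenetic protein, fell by 0.98 ± 0.03. ANKH and ENPP1, which raise extracellular pyrophosphate, were equal in their main probe sets (-0.10 and 0.00), with 2 of 4 and 1 of 2 probe sets of opposite sign, for ANKH up to 0.28. The phosphate list held 2 higher, 3 lower and 4 equal genes of 11 tested. Of 20 calcium genes 4 were higher, 5 lower and 9 equal. S100A10 rose by 0.62 ± 0.04, the plasma membrane pump ATP2B1 fell by 0.32 ± 0.06 and the release channel ITPR1 fell by 0.24 ± 0.05, whereas the ER pump ATP2A2 was equal at 11.89 and 11.91 in its main probe set, but 3 of its other probe sets were at 0.55, 0.63 and 0.61 and the rest near 0, so its probe sets disagree. These shares (45.5% and 45% called) lie near the 44.4% of all genes. After spike-in centring 1 gene of each list was called higher, SLC20A1 at 0.29 and S100A10 at 0.23, with SLC20A2 at 0.19.

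Sterol synthesis genes were higher in 9 of 19 tested and lower in 1 (52.6% called, against 44.4% of all genes), with 8 equal. INSIG1, which holds the sterol sensor in the ER, was at 9.39, 9.28 and 9.54 with insulin and 10.79, 10.91 and 10.79 with biomineralized insulin, without overlap, and rose by 1.43 ± 0.07 log2 (adjusted p = 6.04e-11, weakest of 3 probe sets 0.44). SQLE, squalene epoxidase, rose by 0.79 ± 0.05 and HMGCS1, the first committed step, by 0.59 ± 0.06. FDPS and PMVK, also on the pathway, were equal (0.00 and 0.00), and so was SREBF2 in its main probe set (0.10). After spike-in centring 3 members stayed called higher, with INSIG1 at 1.03, SQLE at 0.40 and HMGCS1 at 0.20. The sterol element, sought as TCACNCCA, was present in 3 of 18 promoters of the list and in 3.47% of all tested genes. The windows of INSIG1 and HMGCS1 held none.

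Of 23 fat synthesis genes 12 were equal, 3 higher and 6 lower, 39.1% called against 44.4% of all genes. SREBF1, the lipogenic factor that insulin induces in liver, fell by 0.39 ± 0.05 (weakest of 3 probe sets -0.09), LPIN1, a phosphatidate phosphatase, fell by 0.50 ± 0.04 and ACSL1, an acyl-CoA synthetase, fell by 0.81 ± 0.07. FASN, fatty acid synthase, rose by 0.36 ± 0.06 and lay at -0.03 after spike-in centring. ACACA, acetyl-CoA carboxylase, was equal in its main probe set (0.01), but another was at -0.48. Fatty acid oxidation was lower in 14 of 22 tested and higher in 2 (72.7% called), with a median of -0.17 log2. The electron transfer genes ETFB and ETFDH were lower (-0.53 ± 0.04 and -0.53 ± 0.04), and the isomerase ECI1 fell by 0.37 ± 0.04, while ECI2 and ECHS1 were equal (0.03 and -0.04). Of 35 respiratory chain and ATP synthase subunits 19 were lower and 1 higher (57.1% called), but by little, since 29 were equal within the margin. NDUFS7 fell by 0.36 ± 0.05, NDUFS1 fell by 0.20 ± 0.04 and ATP5F1D fell by 0.18 ± 0.04.

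Genes of insulin receptor signalling were listed because both preparations hold insulin, and the activity of the receptor was not measured. INSR, the receptor, was at 7.76, 7.69 and 7.65 with insulin and 7.82, 7.79 and 7.86 with biomineralized insulin, without overlap. It was equal by the test (difference 0.12 ± 0.05, equivalence adjusted p = 0.0385), with 1 of 4 probe sets of opposite sign. Without insulin array 1 or 2, or any 1 of the biomineralized insulin arrays, equality was lost (equivalence adjusted p = 0.128, 0.0617, 0.0742, 0.0977 and 0.0506 in limma). IGF1R, the related IGF-1 receptor, was at 8.38, 7.84 and 8.40 and 9.23, 9.25 and 9.23, without overlap, and rose by 1.03 ± 0.11 log2 (weakest of 4 probe sets 0.50). The adaptors moved apart, since IRS2 rose by 0.55 ± 0.06 and IRS1 fell by 0.53 ± 0.06 (weakest of 3 probe sets -0.09). GRB10 and SOCS2, which restrain receptor signalling, were lower (-1.14 ± 0.04 and -1.17 ± 0.07), and SOS1, the RAS exchange factor, fell by 1.09 ± 0.04. SOCS3, another brake, was called at -0.26 ± 0.07, with its other probe set at 0.01. The adaptors GRB2 and SHC1 were equal at -0.06 and 0.03. The list held 5 higher, 9 lower and 8 equal genes of 22 (63.6% called, against 44.4% of all genes). After spike-in centring 1, IGF1R, stayed called higher at 0.63, with IRS2 at 0.15.

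In the PI3K, AKT and mTOR list 9 of 27 were higher, 8 lower and 8 equal (63% called, against 44.4% of all genes). EIF4EBP1, a translation repressor that is also an ATF4 target, fell by 0.78 ± 0.03. PIK3R1, the regulatory subunit of PI3K, fell by 0.74 ± 0.07 (weakest probe set -0.19) and GSK3B fell by 0.47 ± 0.04. AKT1 rose by 0.39 ± 0.07 and lay at -0.01 after spike-in centring. Of 16 gluconeogenesis and FOXO target genes 9 were lower and 2 higher (68.8% called). TXNIP, which limits glucose uptake, was at 11.84, 11.88 and 11.83 and 10.16, 10.23 and 10.24, without overlap, and fell by 1.64 ± 0.03 log2 (adjusted p = 5.81e-16). FOXO1 and FOXO3 were lower (-0.79 ± 0.04 and -0.61 ± 0.06), PPARGC1A fell by 0.46 ± 0.05, and FOXO4 was equal (-0.02). The gluconeogenic genes PCK1 and G6PC1 lay below the filter, at 4.19 and 4.62 log2 with insulin and 4.05 and 4.68 with biomineralized insulin, as did the mean of IGFBP1 over all arrays, at 4.27 with insulin and 5.06 with biomineralized insulin. These dim genes were not tested. Of 22 glycolysis genes 14 were equal, with GAPDH at 13.78 and 13.75 and PGK1 at 13.51 and 13.52. HK1 rose by 0.40 ± 0.04, PFKFB3 by 0.40 ± 0.05 (another probe set 0.03) and the glucose carrier SLC2A1 by 0.28 ± 0.04, which lay at 0.01, 0.00 and -0.12 after spike-in centring. In glycogen metabolism PPP1R3C, a targeting subunit for glycogen synthase, fell by 0.81 ± 0.03 and GYS1, glycogen synthase, rose by 0.38 ± 0.06 (spike-in centred -0.02).

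Of 32 immediate early genes and MAPK feedback genes 16 were lower, 5 higher and 9 equal (65.6% called, against 44.4% of all genes). KLF4 fell by 1.70 ± 0.07 (second probe set -0.72) and EGR1 fell by 1.00 ± 0.06 (weakest of 5 probe sets -0.14), while FOSL2 was equal (0.04) and MYC equal with a small call (0.10 ± 0.03). ERRFI1, an inhibitor of the EGF receptor, was at 11.17, 11.20 and 11.21 with insulin and 9.45, 9.40 and 9.54 with biomineralized insulin, without overlap, and fell by 1.73 ± 0.04. The receptor EGFR fell by 0.52 ± 0.04 (weakest probe set -0.21), and LRIG1, a second brake on it, rose by 0.65 ± 0.08 (spike-in centred 0.25). In the TGF-beta, BMP and activin list, with 69.2% called, 14 of 26 were lower and 4 higher, TGFBR1 by 0.50 ± 0.03 (spike-in centred 0.10). Of 18 NF-kB, cytokine and chemokine genes 6 were lower, 2 higher and 7 equal, and the share called equalled that of all genes, 44.4%. CXCL2 fell by 1.59 ± 0.07, whereas TNFAIP3, a feedback inhibitor of NF-kB, and LIF were equal (0.02 and 0.00). Of 18 interferon-stimulated genes 6 were lower, IFIT2 fell by 0.63 ± 0.09, IFIT5 fell by 0.42 ± 0.06 and TRIM25 fell by 0.38 ± 0.05, 1 was higher and 8 could be given neither call.

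Clock genes moved in both directions. BMAL1, the activator of the clock, was at 8.79, 8.68 and 8.81 with insulin and 7.26, 7.41 and 7.38 with biomineralized insulin, without overlap, and fell by 1.41 ± 0.06 log2 (weakest of 3 probe sets -0.96). NFIL3, a repressor of clock output, fell by 1.28 ± 0.05. PER2, a repressor within the clock, was at 6.06, 5.91 and 6.01 and 7.50, 7.62 and 7.39, without overlap, and rose by 1.51 ± 0.07, but its other probe set was at 0.01, and TEF, an activator of clock output, rose by 1.40 ± 0.08, with its other probe set at 0.00. CRY1 and BHLHE40 were equal (0.05 and 0.11). In all 6 of 15 clock genes were higher, 3 lower and 4 equal (60% called, against 44.4% of all genes). After spike-in centring 3 stayed higher, among them PER2 at 1.11 and TEF at 1.00. Among 22 hypoxia targets 9 were higher and 8 lower (77.3% called). ANKRD37 rose by 0.87 ± 0.04 (spike-in centred 0.47), while VLDLR fell by 1.12 ± 0.07 and DDIT4 fell by 0.53 ± 0.03. NRF2 targets, the antioxidant genes, split into 8 higher, 8 lower and 8 equal of 24 (66.7% called). TXNRD1 fell by 0.40 ± 0.03 and NFE2L2, the gene of NRF2, fell by 0.36 ± 0.04, with TALDO1 and PRDX1 equal (0.00 and 0.07).

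Uptake and transport genes were examined because the series title speaks of insulin inside the nucleus. Of 26 endocytosis genes 12 were higher, 3 lower and 13 equal (57.7% called, against 44.4% of all genes). Of those equal, 2 were also called. CAVIN1, needed to form caveolae, was at 8.30, 8.26 and 8.31 with insulin and 9.53, 9.42 and 9.51 with biomineralized insulin, without overlap, and rose by 1.197 ± 0.05 log2 (adjusted p = 4.88e-12), the caveolar coat gene CAV1 by 0.67 ± 0.04 and CAV2 by 0.37 ± 0.04. CLTC, clathrin heavy chain, was equal at 13.08 ± 0.00 and 13.09 ± 0.04 (SD, n = 3). After spike-in centring 2 genes stayed called higher, CAVIN1 at 0.80 and CAV1 at 0.27, with CAV2 at -0.03. Of 31 lysosome and vacuolar ATPase genes 22 were equal (71%, against 40.5% of all genes) and 32.3% were called. LAMP1 was equal (-0.02), while NPC1, the lysosomal cholesterol exporter, was called at -0.54 ± 0.05 with its other probe set at -0.02. Autophagy genes were lower in 12 of 24 and higher in 3 (62.5% called). ULK1, the initiating kinase, fell by 0.99 ± 0.06, GABARAPL1 by 0.69 ± 0.05 (weakest probe set -0.25) and MAP1LC3B by 0.50 ± 0.04 (weakest of 4 probe sets -0.02). SQSTM1, the cargo receptor p62, was equal (-0.01), with 3 of 5 probe sets of opposite sign. Of 31 nuclear import genes and nucleoporins 20 were equal (64.5%), 11 were higher and 7 lower (58.1% called), none by 1.5-fold. Of the equal genes 7 were also called. The importin IPO7 and nucleoporin NUP107 were equal (0.01 and 0.00), XPOT, which exports tRNA, fell by 0.44 ± 0.06, and KPNA4 was called lower at -0.39 ± 0.04 with 1 of 3 probe sets of opposite sign. No lysosome, autophagy or nuclear import gene was called higher after spike-in centring.

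Chromatin enzymes bear on the epigenetic question in the series title. Of 15 DNA methylation genes 10 were equal, 3 were higher and 3 lower, and 2 of these called genes were also equal. The share called, 40%, lay near the 44.4% of all genes. DNMT1, the maintenance methyltransferase, was at 11.40, 11.43 and 11.39 with insulin and 11.30, 11.36 and 11.29 with biomineralized insulin, called lower by a small step (-0.09 ± 0.03) inside the margin. CXXC1, which binds unmethylated CpG sites, rose by 0.73 ± 0.07, TET2, which oxidizes methylated cytosine, fell by 0.36 ± 0.07 and the de novo enzyme DNMT3A fell by 0.28 ± 0.08. The DNMT3A call was lost without insulin array 2 or biomineralized insulin array 1 (limma adjusted p = 0.0688 and 0.087), and the DNMT1 call without insulin array 2 or biomineralized insulin array 1 or 3 (0.0601, 0.073 and 0.0844). TDG, a glycosylase of demethylation, was equal (0.04). Of 40 histone methylation genes 13 were higher, 8 lower and 19 equal (52.5% called, against 44.4% of all genes). The demethylase KDM4A fell by 0.94 ± 0.07 and EZH2, the Polycomb methyltransferase, fell by 0.79 ± 0.07, while KDM2B rose by 0.59 ± 0.05 (weakest of 5 probe sets 0.05) and KDM1A was equal (0.09). Of 28 histone acetylation genes 7 were higher, 11 lower and 9 equal (64.3% called). The close acetyltransferases KAT2A and KAT2B moved in opposite directions, at 0.53 ± 0.06 and -0.60 ± 0.05, SIRT1, a deacetylase, fell by 0.54 ± 0.05, and HDAC2 was equal (0.00). After spike-in centring CXXC1 at 0.33 was the 1 gene of these 3 lists that stayed called higher, with KDM2B at 0.20 and KAT2A at 0.13.

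Mitosis genes were higher in 13 of 30 and lower in 3 (53.3% called, against 44.4% of all genes), with 15 equal. KIF20A rose by 0.64 ± 0.04, ANLN by 0.54 ± 0.04 and CCNB1, cyclin B1, by 0.32 ± 0.03, which lay at 0.25, 0.14 and -0.07 after spike-in centring, and PRC1 was equal (0.00). Of 33 replication genes 19 were equal, with TYMS at -0.01 and MCM7 at 0.02, 11 were lower and 5 higher. CCND1, cyclin D1, rose by 0.63 ± 0.05 (spike-in centred 0.23), and the primase PRIM1 fell by 0.50 ± 0.03. In the p53 list 9 of 21 were lower and 5 higher (66.7% called). GADD45A, a stress-induced growth arrest gene, was at 9.74, 9.74 and 9.68 and 7.61, 7.71 and 7.71, without overlap, and fell by 2.04 ± 0.04 log2. TNFRSF10D, a decoy receptor for the death ligand TRAIL, was at 6.65, 6.70 and 6.82 and 8.26, 8.36 and 8.33, without overlap, and rose by 1.60 ± 0.08, although its other probe set was at 0.22, and lay at 1.199 after spike-in centring. In the BCL2 family and caspases 11 of 25 were lower and 2 higher (52% called, against 44.4% of all genes). PMAIP1, also called NOXA, a death-promoting member, fell by 2.00 ± 0.05, CASP9 fell by 0.68 ± 0.04 (weakest probe set -0.19) and BIRC2 fell by 0.39 ± 0.03, and BAD was equal (0.03).

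Genes of ribosome making were higher in 21 of 42 and lower in 6 (64.3% called, against 44.4% of all genes). Equal were 19, of which 6 were also called. RRP1B rose by 0.64 ± 0.04 log2 (second probe set 0.25), RRS1 by 0.49 ± 0.03 and NOP16 by 0.51 ± 0.04, while BRIX1 and NPM1 stayed inside the margin (-0.02 and 0.08). Splicing factors were called in 24 of 30 (80%), 18 higher and 6 lower. SRSF2 rose by 0.81 ± 0.04, although its weakest of 3 probe sets was at 0.05, SRSF7 rose by 0.50 ± 0.03 (weakest 0.23) and RBM39 fell by 0.45 ± 0.03. Translation initiation factors were higher in 12 of 30 and lower in 6 (60% called). EIF3G was at 0.76 ± 0.05 (weakest of 3 probe sets 0.14), while EIF1 fell by 0.38 ± 0.03 and the elongation factor EEF2 was equal (-0.01). Of the genes called higher in these 3 lists, 2, 1 and 1 rose by at least 1.5-fold. After spike-in centring 2, 1 and 1 genes of these 3 lists stayed called higher and 27, 17 and 20 were lower, with RRP1B at 0.25, RRS1 at 0.09, NOP16 at 0.11, SRSF2 at 0.41, SRSF7 at 0.11 and EIF3G at 0.37. In the other lists with calls of higher genes, that centring left 3 hypoxia targets, 3 matrix genes, 2 immediate early genes and 1 gene each of the p53, glycolysis, mitosis and EGF lists called higher. It left none in the ER, proteasome, fat synthesis, fatty acid oxidation, gluconeogenesis, PI3K, glycogen, TGF-beta, NF-kB, interferon, NRF2, replication, BCL2 and respiratory chain lists, nor among listed ribosomal proteins. The shares called in the glycolysis (45.5%), replication (48.5%), matrix (39.3%) and interferon lists (38.9%) also lay near the 44.4% of all genes.

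**Figure D3:**
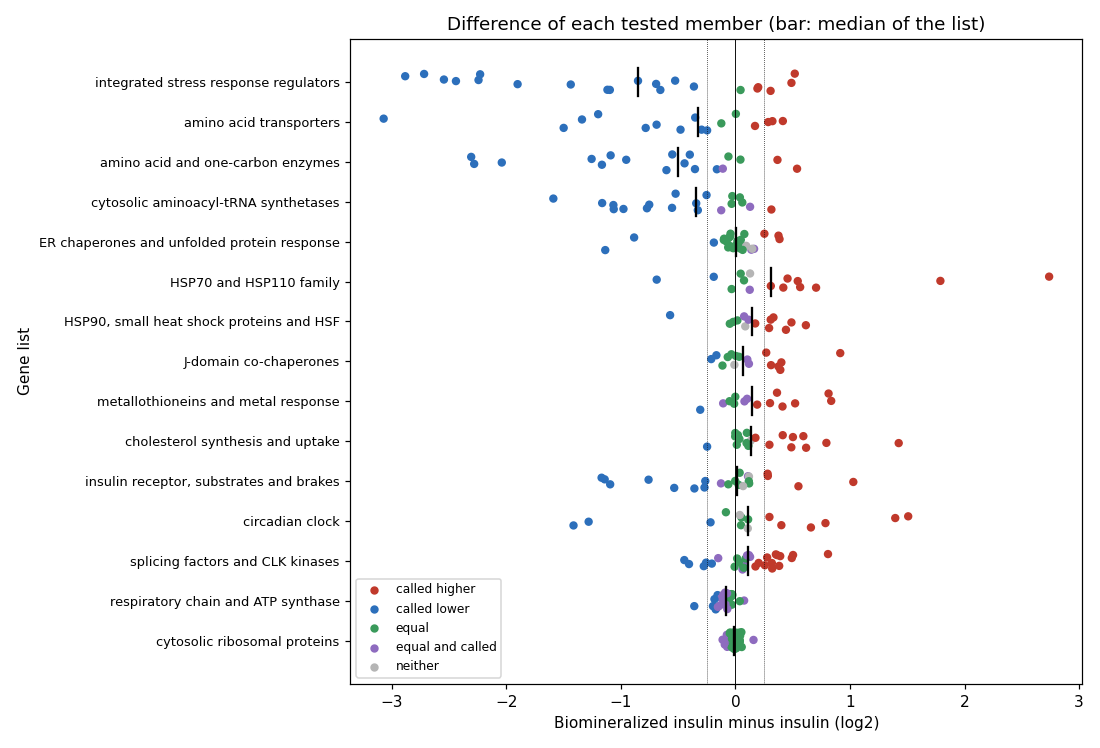
Difference of each tested member of 15 lists (biomineralized insulin minus insulin, log2, horizontal axis), 1 point per gene coloured by call, with a black bar at the list's median and dotted lines at the margin of 0.25 log2. Of the lists shown, the stress response regulators have the lowest median (-0.85) and the listed cytosolic ribosomal proteins all lie inside the margin.

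The remaining large rises included matrix genes. SPOCK1, a matrix proteoglycan, was at 4.76, 4.88 and 4.51 with insulin and 6.57, 6.30 and 6.78 with biomineralized insulin, without overlap, and since the first mean lay below the filter it was at least 3.51-fold higher. CEMIP, which breaks down hyaluronan, rose by 1.45 ± 0.05, with its other probe set at 0.19, FGFBP1, which releases FGF from matrix, by 1.41 ± 0.09, SPINK6, a protease inhibitor, by 1.42 ± 0.08 and UBASH3B, a phosphatase, by 1.39 ± 0.10. ECM2, a matrix protein, fell by 2.57 ± 0.07. Of 28 matrix and integrin genes 13 were equal, 6 higher and 5 lower, with ITGB1 equal at 13.46 and 13.51. RPL27A rose by 1.59 ± 0.11 in a single probe set at 5.53 log2 with insulin, far dimmer than the ribosomal proteins below. After spike-in centring these 6 genes that rose lay at 1.44 (SPOCK1), 1.05 (CEMIP), 1.02 (FGFBP1), 1.02 (SPINK6), 0.99 (UBASH3B) and 1.198 (RPL27A).

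Genes that stay equal were found at all levels but more often among bright genes. By quartile of level the share of equal genes was 27.6%, 34.8%, 40.4% and 59.3%, while the median standard error fell from 0.09 to 0.04 log2, so precision moved with the share. All 43 tested members of the cytosolic ribosomal protein list, which does not hold RPL27A (called higher, above), were equal, between -0.11 (RPL10A) and 0.16 (RPL13), although RPL13 was not equal without insulin array 2 or biomineralized insulin array 2 (equivalence adjusted p = 0.0529 and 0.0567 in limma). RPS24 was at 13.70, 13.70 and 13.70 with insulin and 13.72, 13.70 and 13.69 with biomineralized insulin, in overlapping groups. The brightest equal genes, RPL37, RPL32, RPS2, RPL37A, RPL23A and the enzyme LDHA, lay at 14.0 to 14.1 log2, near the highest value on the arrays of 14.3 log2. Other probe sets of RPL32 reached 0.26, and those of RPS2 and RPL37A were at 0.38 and 0.41. Of 3168 equal genes with several probe sets, 2684 (84.7%) had all of them within 0.25 log2.

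**Figure D4:**
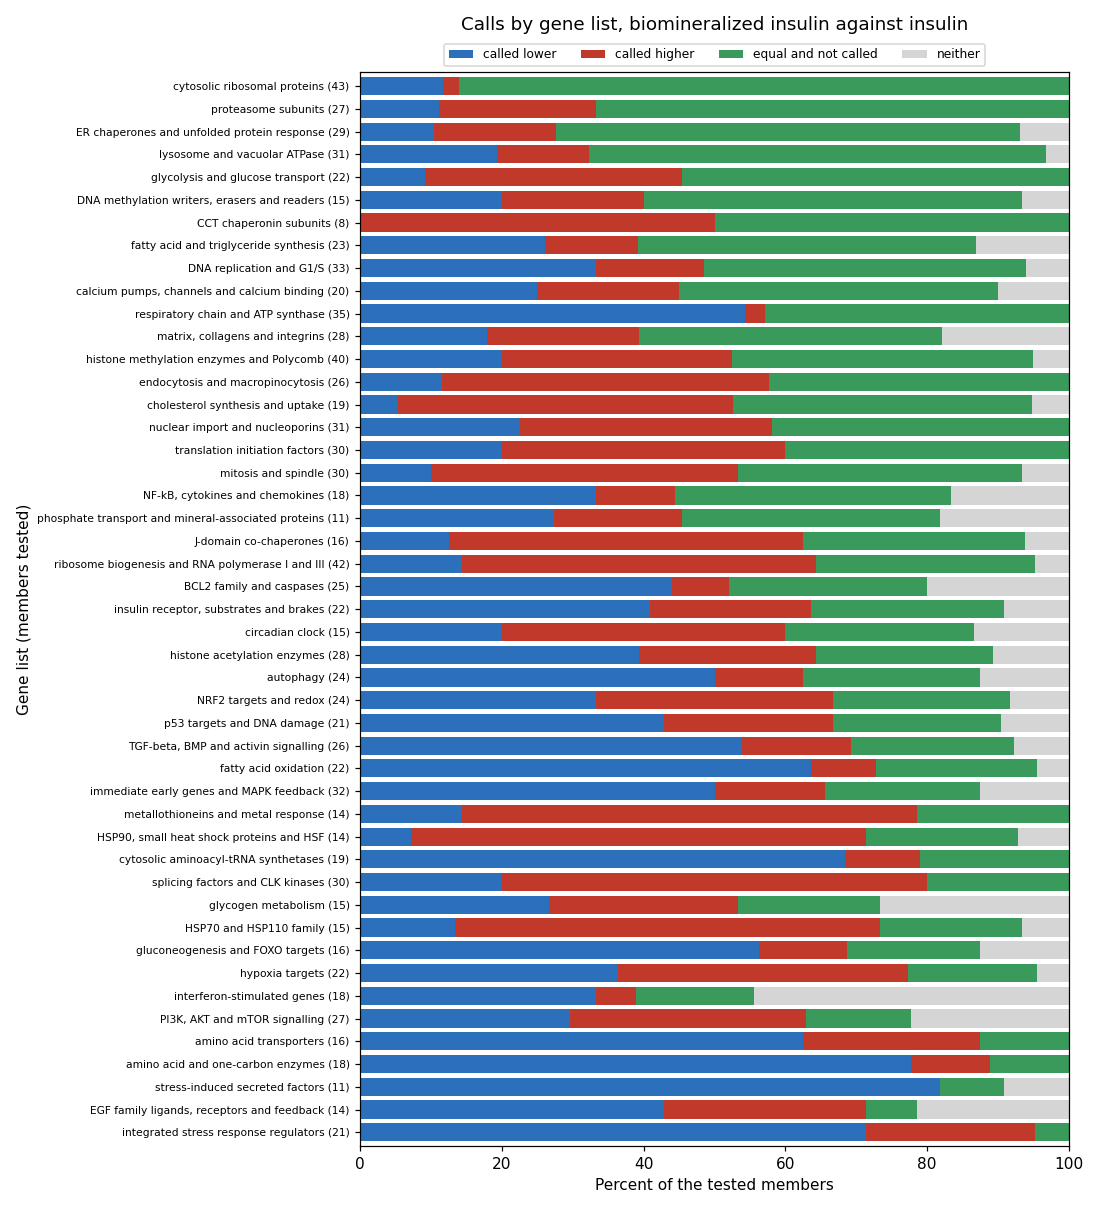
Share of the tested members (percent, horizontal axis) of each of 47 gene lists that was called lower (blue), called higher (red), equal and not called (green) or neither (grey), ordered by the green share, with the number tested in brackets. Ribosomal proteins, proteasome subunits and ER chaperones stand at the top and the stress response regulators at the bottom.

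Some genes differed from medium with insulin and were equal between its 2 forms. The 8 described had the lowest p in insulin against medium among the equal genes, with limma adjusted p from 0.00231 (SNRPA) to 0.0143 (CAPRIN1). Their steps from medium were about as large as the margin of 0.25, so equality here does not show the same response. Values against medium share the insulin arrays with the main comparison. SNRPA, a protein of the U1 splicing particle, was at 9.40, 9.44 and 9.43 in medium, 9.11, 9.11 and 9.06 with insulin and 9.04, 9.03 and 9.18 with biomineralized insulin, with both treated groups below medium and overlapping each other. RPS27L, a ribosomal protein-like gene, was at 11.77, 11.82 and 11.77, 11.97, 12.02 and 12.01 and 12.08, 12.01 and 12.13, with both above it and overlapping. AKR1C3, a steroid-reducing enzyme, was at 11.84, 11.79 and 11.85, 11.99, 12.03 and 12.01 and 12.12, 12.07 and 12.07, again both above, but the preparations did not overlap and differed by a small called step (0.08 ± 0.03). The zinc and iron importer SLC39A14 and the scavenger receptor OLR1 lay below medium with both preparations, with means of 11.65, 11.48 and 11.38 and of 9.61, 9.37 and 9.42 in the same order. The kinase MAP3K5 was at 6.72, 7.05 and 7.15, C11orf86 at 8.81, 9.11 and 9.06, and CAPRIN1, an RNA-binding protein, at 11.46, 11.29 and 11.39, and 3 of 8 probe sets went the other way between the preparations. The steps of insulin from medium ran from -0.33 (SNRPA) to 0.33 log2 (MAP3K5).

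**Figure D5:**
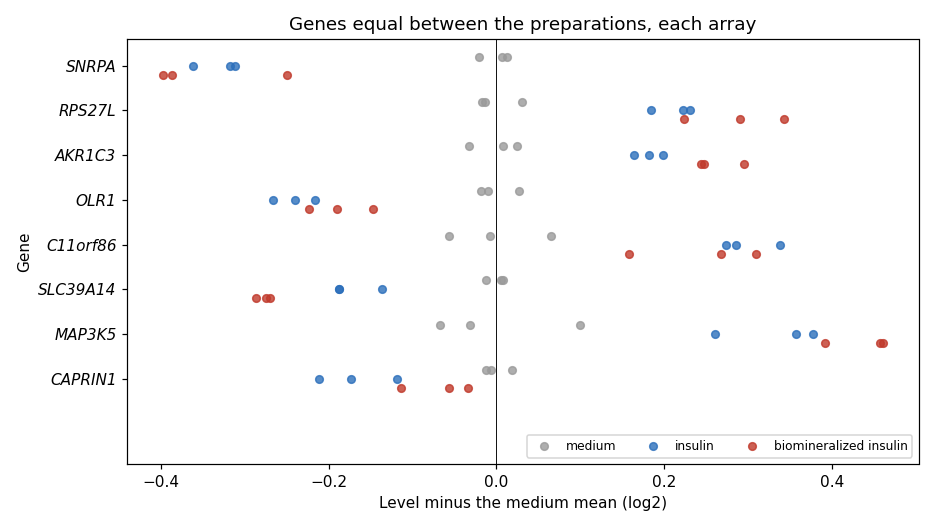
Level on each array minus the medium mean (log2, horizontal axis) for 8 genes equal between the preparations, 1 point per array, in grey for medium, blue for insulin and red for biomineralized insulin. Blue and red points lie on the same side of the grey ones in each gene, below 0.5 log2 in size. The genes were chosen for a step from medium to insulin and for equality between the preparations. A shared side follows largely from that choice.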

How the data were processed

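RNA of 9 samples was read on 1-colour Affymetrix 3' expression arrays, 3 per group. The authors deposited log2 values per probe set (range 2.02 to 14.3), with array medians alike. Software and scanner values are not given in the sources used here. Of 49395 probe sets, 44988 had 1 gene, 1832 several and 2473 none listed, and 102 were controls. Symbols were updated by Entrez identifier for 44961 and kept for 27. The dimmest 40 percent of probe sets (under 4.74 log2) were left out, and the brightest probe set stood for a gene. All 9 arrays entered 1 limma fit (version 3.58.1 under R 4.3.3, with an intensity trend in eBayes and 6 residual degrees of freedom) with Benjamini-Hochberg adjustment over 12239 genes. Equality was 2 one-sided tests of the same fit against 0.25 log2, adjusted likewise. Errors of differences are standard errors. The steps were tested on simulated data. Arrays of the same number deviated together by r of -0.02, -0.11 and 0.09, so numbers were not taken to pair them. Promoters are from RefSeq (GRCh38.p14).

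The genes and 53 lists were chosen with earlier results of these data known. Named are the 12 largest rises and falls whose groups do not overlap and whose probe sets share a sign, up to 3 called and 2 equal members of lowest p per list, fixed insulin and stress markers, the 8 equal genes of lowest p in insulin against medium and the 6 brightest equal genes. AARS1, AKT1, ATF4, CHAC1, EIF2AK2, EIF2AK3, EIF2AK4, FKBP5, GDF15, HSF1, HSPA5, IGF1R, IL6, MT1E, MTF1, NUPR1, PHGDH, PSAT1, RARS1, SLC20A2, SREBF2 and the genes of the last section were chosen after their values were seen. Alternatives covered the replicate block, scaling, filter, probe set, variance model and each array left out. Figures were drawn with matplotlib 3.10.9.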

Additional observations from a re-analysis of the deposited data

Results flagged for a closer look

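The gene comparison does not use the control features or the probe sets without a single gene. The poly-A spike-ins were brighter by 0.397 log2 with biomineralized insulin than with insulin (exact p = 0.1, 0.25 after adjustment over 5 control tests). Of 1035 probe sets above the filter that are listed with several genes, 387 were called (37.4%), 4 of them at least 2-fold higher and 5 at least 2-fold lower, from -1.61 to 2.82 log2. Of 1318 with no gene listed, 476 were called (36.1%), 3 at least 2-fold higher and 8 at least 2-fold lower. Both shares lie below that of probe sets with 1 gene in the same fit (38.8%).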

How the results depend on the processing

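Counts of changed genes (5433), of genes changed at least 1.5-fold (636) and of equal genes (4961) stayed within 1.5 times under the replicate block (5302, 636 and 4633), the 6 arrays alone, median centring, quantile normalization, other filters, the mean of probe sets, probe sets free of cross-hybridization, no intensity trend and array weights. Leaving out 1 array gave 4855 to 5556 changed, 627 to 661 changed 1.5-fold and 3631 to 5227 equal genes. Centring on the poly-A spike-ins gave 9748 changed (152 higher, 9596 lower), 2353 changed 1.5-fold and 0 equal genes (the cause was not tested). The probe set of largest variance gave 1435 equal genes, which that choice of variable probe sets lowers by construction. By the thresholds themselves, 147 genes changed at least 2-fold, 326 were equal within 0.15 log2 and 10662 within 0.5 log2. Spike-in centring reversed small rises, to -0.20 (ABCA3), -0.32 (AKR1C3), -0.009 (AKT1), -0.30 (CAPRIN1), -0.028 (CAV2), -0.074 (CCNB1), -0.15 (CCT3), -0.022 (DNAJB1), -0.20 (EIF2AK2), -0.20 (EIF2AK3), -0.034 (FASN), -0.017 (GYS1), -0.021 (MANF), -0.30 (MYC), -0.028 (NKX2-1), -0.32 (NPM1), 0.00 (PFKFB3), -0.33 (PRDX1), -0.083 (RARS1), -0.24 (RPL13), -0.12 (SLC2A1), -0.20 (TCP1) and -0.32 (TFRC). With the most variable probe set TFRC was at -0.012. Without 1 array, calls were lost for ABCA3 (adjusted p up to 0.0619 in limma), AKR1C3 (0.114), CAPRIN1 (0.1), MTHFD1 (0.185, and under the replicate block), MYC (0.128), NPM1 (0.0718), PRDX1 (0.155) and TFRC (0.065), and equality for BHLHE40 (0.131), CPS1 (0.0858), ENPP1 (0.11), MAP3K5 (0.117) and SREBF2 (0.11). With 3 arrays a group, their number limits the precision, and 2538 genes could be given neither call.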

Other observations

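The pathway lists hold a small share of the genes. Of the 636 genes changed at least 1.5-fold, 513 (80.7%) were in no list, 157 higher and 356 lower, against 91.1% of all tested genes in no list. The genes and families named here were chosen after their values were seen. Tubulins, the subunits of microtubules, were higher as a family. All 12 tested alpha and beta tubulin genes were called higher, against 21.1% of all genes. They rose by 0.19 to 1.15 log2 with a median of 0.39, and 1 had a probe set of opposite sign. After spike-in centring 4 stayed called higher. TUBB2A was at 7.95, 8.03 and 8.01 with insulin and 9.13, 9.23 and 9.09 with biomineralized insulin, without overlap, TUBB4B rose by 0.90 ± 0.03 and TUBB3 by 0.83 ± 0.08. Tubulin genes are close copies, so probe sets may share signal. Histone genes were lower in 18 of 35 tested (against 23.3% of all genes), higher in 2 and equal in 8, with a median of -0.23. A probe set of opposite sign was found for 4 of the 35, and the largest fall was H2AC20 (-1.09 ± 0.11).

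Other surface and signalling genes also moved. CXCR4, a chemokine receptor, was at 9.74, 9.52 and 9.93 with insulin and 11.06, 11.09 and 11.16 with biomineralized insulin, without overlap, and rose by 1.37 ± 0.08. SGK1, a kinase activated through PI3K, rose by 0.91 ± 0.03, VCP, the segregase that hands proteins to the proteasome, by 0.89 ± 0.04, and DKK1, a secreted Wnt inhibitor, by 1.01 ± 0.05. ULBP1, a ligand that marks stressed cells for natural killer cells, was at 5.59, 5.82 and 5.75 and 3.87, 3.17 and 3.58, the latter below the filter, so at least 1.96-fold lower. The other probe set of ULBP1 was at -0.11. PHLDA1 fell by 1.94 ± 0.06, TSC22D3, also called GILZ and induced by glucocorticoids, fell by 1.94 ± 0.04, and the tight junction genes CLDN1 and CLDN7 were lower (-1.39 ± 0.04 and -1.52 ± 0.05). IDH1 fell by 1.05 ± 0.04 and AHR, the dioxin receptor, fell by 1.08 ± 0.06.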
